A study of Mus musculus with 2 samples.

Results

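The loci of the E protein genes Tcf3, Tcf4 and Tcf12 and of the inhibitor genes Id2 and Id3 were examined for histone H3 monomethylated at lysine 4 (H3K4me1) in mouse pre-B cells. The members are the called H3K4me1 regions that overlap, by at least 1 base, 1 of 5 fixed windows of mouse build mm9. The windows were chr10:79830000-79930000 for Tcf3, chr18:69420000-69920000 for Tcf4, chr9:71620000-72020000 for Tcf12, chr12:25700000-25860000 for Id2 and chr4:135640000-135760000 for Id3. They held 84 of the 48130 regions in the list, 54 in the 3 E protein windows and 30 in the 2 Id windows. The 2 groups of the study were an H3K4me1 immunoprecipitate and an input made without antibody, with 1 library each. Both were labelled as pre-B cells of B6 mice with the genotype RAG1-/-, and both carried a rearranged IgM transgene. Bone marrow came from C57BL/6 mice of both sexes, aged 6 to 14 weeks, and how many animals went into a library is not given in the sources used here. Mice without Rag1 cannot rearrange their own antigen receptor genes, and their cells reach the pre-B stage through the transgene. No gene annotation of mm9 was used here, so no region is assigned to a promoter, exon or intron, and B-lineage marker genes were not located to check the label of the cells.

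E proteins are basic helix-loop-helix transcription factors that pair with each other and bind the E-box, a short DNA motif found in many B-cell genes. Id factors have the helix-loop-helix but lack the basic region that contacts DNA, so an E protein paired with an Id factor does not bind. Tcf3 encodes E12 and E47, which are required for entry into the B lineage, Tcf12 encodes HEB, best known from thymocytes, and Tcf4 encodes E2-2, best known from plasmacytoid dendritic cells. Id2 is known for its role in innate lymphoid and natural killer cells, and Id3 is an early target of antigen receptor signals in lymphocytes. H3K4me1 is a mark of enhancers that also borders the promoters of active genes, and a called region gives its position and length, with no height.

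The DNA before 3 of these genes is shown because the E-box is the motif through which the balance of E proteins and Id factors acts. The sequences are from RefSeq on build GRCm38.p6, 5′ to 3′ on the strand of the gene, with every match to CANNTG in capitals. The Id2 and Id3 stretches are the 250 bases before the annotated start. For Tcf12, the 250 bases before the outermost start in the table run into the annotated gene span, so only the 176 bases outside that span are shown.
Tcf12, chr9:72111894-72112069, minus strand: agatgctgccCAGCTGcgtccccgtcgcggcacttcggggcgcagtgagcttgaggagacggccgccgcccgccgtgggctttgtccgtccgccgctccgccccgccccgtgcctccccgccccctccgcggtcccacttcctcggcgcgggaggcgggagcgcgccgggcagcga
Id2, chr12:25096093-25096342, minus strand: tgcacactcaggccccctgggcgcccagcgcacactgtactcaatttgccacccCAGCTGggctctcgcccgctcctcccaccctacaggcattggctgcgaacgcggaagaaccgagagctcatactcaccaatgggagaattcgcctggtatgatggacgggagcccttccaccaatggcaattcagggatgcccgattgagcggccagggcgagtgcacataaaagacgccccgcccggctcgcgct
Id3, chr4:136143572-136143821, plus strand: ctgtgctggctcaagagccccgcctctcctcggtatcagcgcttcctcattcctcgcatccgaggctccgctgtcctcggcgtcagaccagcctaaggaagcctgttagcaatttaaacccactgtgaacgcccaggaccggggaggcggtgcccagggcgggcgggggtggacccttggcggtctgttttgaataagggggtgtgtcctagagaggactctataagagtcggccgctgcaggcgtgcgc
The Tcf12 and Id2 stretches each hold 1 match, and both matches read CAGCTG, while the Id3 stretch holds none. Among 32817 RefSeq promoters, 66.2% hold CANNTG in the 250 bases before the start and 13.0% hold CAGCTG. In the 176 bases that correspond to the Tcf12 stretch, 54.7% hold CANNTG and 9% hold CAGCTG. Both motifs read the same on either strand, every CAGCTG is also a CANNTG, and a match is a description of letters, not of a bound site. CAGGTG, searched on both strands, occurred in none of the 3 stretches. It occurs in 17.2% of promoters in the 250 bases and in 12.8% in the 176 bases. These positions belong to another build than the regions below, so the 2 sets of coordinates cannot be compared. Tcf3 had an entry that lies within its annotated gene span and is not shown, and Tcf4 is named only.

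The H3K4me1 library held 50945360 tags, of which 15701950 lay in regions, per the file header, and the tags behind a single region were not used here. Since each group had a single library, no spread between replicates could be measured and no p-value is given. Intervals are exact Poisson intervals at 95% and cover counting error only, and they treat regions as independent.

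The 5 loci differed in how densely they were marked, and the difference did not follow the division into E proteins and inhibitors. Id3 was the most densely marked, followed by Tcf3, Id2, Tcf4 and Tcf12 in order of regions per length. The Tcf3 window had 9 regions over 100 kb (interval 4.12 to 17.1 per 100 kb). The Tcf4 window had 26 regions over 500 kb, or 5.20 per 100 kb (3.40 to 7.62), and the Tcf12 window had 19 over 400 kb, or 4.75 per 100 kb (2.86 to 7.42). Tcf4 and Tcf12, the E protein genes with the widest windows, thus had nearly the same density. The Id2 window had 11 regions over 160 kb, or 6.87 per 100 kb (3.43 to 12.3), and the Id3 window had 19 over 120 kb, or 15.8 per 100 kb (9.53 to 24.7). The intervals of each pair of neighbours in that order overlap.

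Covered bases gave a wider range. Regions covered 33.1% of the Tcf3 window, 9.39% of the Tcf4 window and 11.2% of the Tcf12 window, beside 18.9% of the Id2 window and 46.5% of the Id3 window. Id3 and Tcf3 thus lay well above the other 3 loci. In covered kb the windows were closer together, at 33.1 kb for Tcf3, 46.9 kb for Tcf4, 44.9 kb for Tcf12, 30.2 kb for Id2 and 55.9 kb for Id3. The windows differ in size, and how far size accounts for the differences in covered share was not tested. With 100 kb around the middle of every window, the covered share was 33.1% at Tcf3, 11.7% at Tcf4, 16.4% at Tcf12, 14.9% at Id2 and 45.4% at Id3, so that Tcf12 and Id2 changed places.

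**Figure D1:**
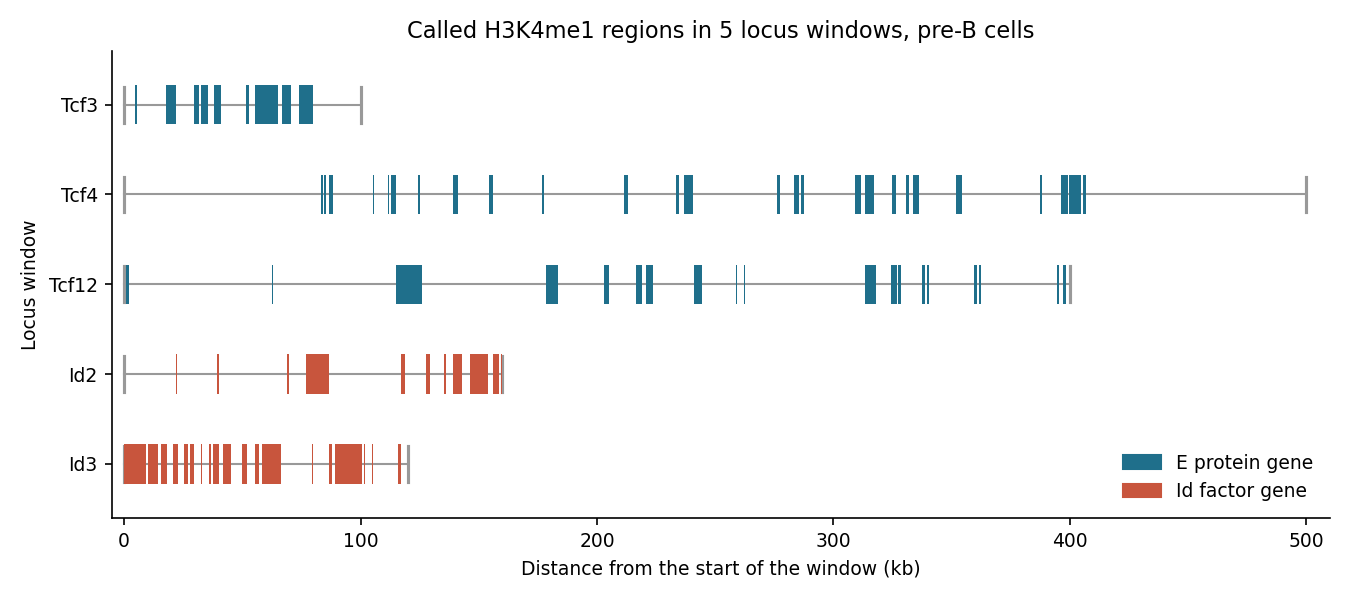
Map of the called H3K4me1 regions (filled boxes) in the 5 locus windows; the horizontal axis is the distance from the start of each window in kb and the grey line is the extent of the window. Regions fill 33.1% of the Tcf3 window and 46.5% of the Id3 window, while those of Tcf4 and Tcf12 are spread over 324 and 398 kb.

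Each E protein window was set over each Id window, in 6 pairs. Against Id3, Tcf4 had 0.328 times the regions per length (interval 0.175 to 0.628) and Tcf12 had 0.300 times (0.150 to 0.599), and these were the only 2 pairs whose counting interval did not include 1. Tcf3 had 0.568 times the density of Id3 (0.226 to 1.32). Against Id2, Tcf3 had 1.31 times the density (0.479 to 3.47), and this ratio moved to 2.80 among regions of at least 2000 bases. Tcf4 had 0.756 times the density of Id2 (0.361 to 1.70) and Tcf12 had 0.691 times (0.312 to 1.61). By covered share, Tcf3 had 1.75 times the coverage of Id2, or 2.23 times in windows of equal size, and 0.712 times that of Id3. Tcf4 had 0.497 times the coverage of Id2 and 0.202 times that of Id3, and Tcf12 had 0.595 times and 0.241 times. Some of these directions are not fixed: Tcf3 over Id3 was 1.05 among regions of at least 2000 bases, Tcf4 over Id2 was 1.01 among regions of at least 1000 bases and 1.20 in windows of equal size, and Tcf12 over Id2 was 1.11 by coverage in windows of equal size. By count, Tcf12 over Id2 was 1.00 in windows of equal size. Regions cluster along the genome, so the counting intervals are too narrow.

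**Figure D2:**
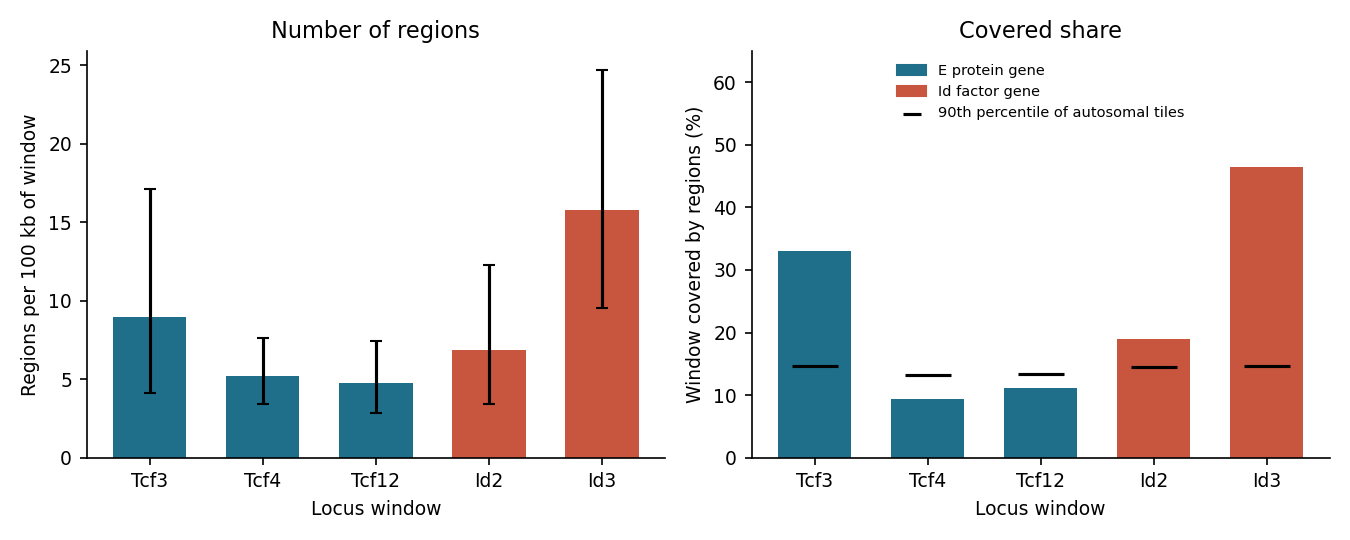
Regions per 100 kb of window (left; bars with exact Poisson 95% intervals) and share of the window covered by regions in percent (right; black lines mark the 90th percentile of autosomal tiles of the same size) for the 3 E protein and the 2 Id windows. Tcf3 and Id3 are highest on both scales, and Tcf4 and Tcf12 lie under the 90th percentile lines of 13.2% and 13.4%.

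To set the windows beside the rest of the genome, the 19 autosomes were cut into tiles of the size of each window, from the first region of a chromosome on and without regard to genes. At Tcf3, 4.92% of 24005 tiles held at least 9 regions and 1.90% were covered at least as far as the window. At Tcf4, 11.6% of tiles held at least 26 regions and 17.5% were covered at least as far. At Tcf12, the shares were 15.1% for at least 19 regions and 13.6% for coverage. Tcf4 and Tcf12 were thus fuller than most tiles of their size, whose fullest held 64 and 54 regions. At Id2, 8.50% of tiles held at least 11 regions and 6.22% were covered at least as far. At Id3, 0.0250% of 20004 tiles, or 5 tiles, held 19 regions or more, and 0.485% were covered at least as far. The fullest tile of the Id3 size held 22 regions, and few of these tiles held as many regions as the Id3 window. Any region at all was present in 47.8% of tiles of the Tcf3 size, 71.5% of the Tcf4 size, 68.1% of the Tcf12 size, 54.4% of the Id2 size and 50.4% of the Id3 size. These shares describe where each window lies in this library and are not tests.

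**Figure D3:**
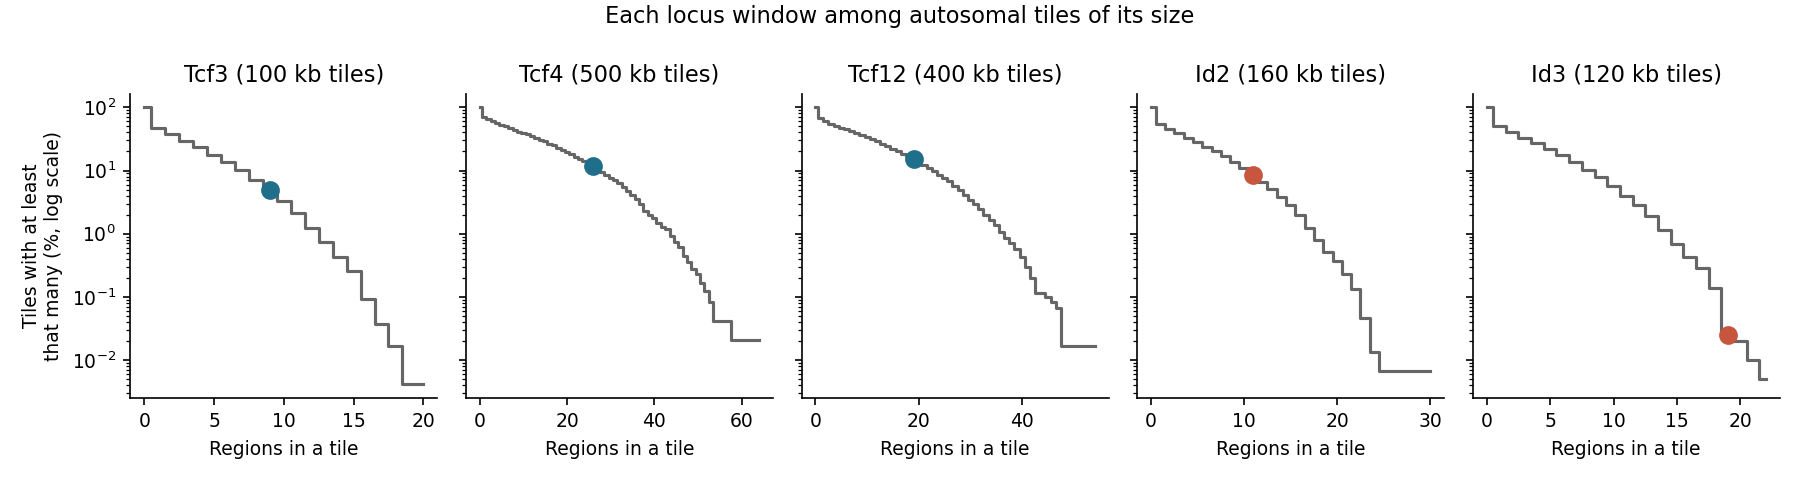
Share of autosomal tiles, in percent on a log axis, that hold at least the number of regions on the horizontal axis, for tiles of the size of each window; the dot marks the window. The Id3 dot lies at 19 regions and 0.0250% of tiles, while the other 4 lie between 4.92% and 15.1%.

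Tcf3 had the lowest number of regions, in the smallest window, and most of them were longer than the median of all regions. The longest was chr10:79885432-79895110, of 9679 bases, which made up 29.2% of the covered bases of the window. After a gap of 1655 bases came a region of 3768 bases (chr10:79896766-79900533), and 3458 bases further a region of 5753 bases (chr10:79903992-79909744). The region chr10:79847742-79851755 had 4014 bases and was the third longest. The first region of the window was also the shortest, at 760 bases (chr10:79834503-79835262), and the last was the one of 5753 bases. The median length was 2989 bases, beside 1497 bases over all regions, so most regions of the list are shorter than 2000 bases. Of the 9 at Tcf3, 7 reached 2000 bases, and the exact share over the list was not computed. None had the shortest length in the list, 501 bases, which 14.3% of all regions have.

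All gaps within the Tcf3 window were at most 12500 bases, so the 9 regions joined into 1 domain of 75.2 kb, of which 44.0% was covered. The largest gap, 12479 bases, was just under that limit, and joining over 5 kb left 4 domains. Over the genome, 1.97% of the 20379 domains made with this joining gap covered as many bases. The last 20.3 kb of the window held no region. The neighbourhood was as dense as the locus itself in number, with 9 regions in the 100 kb before the window and 9 in the 100 kb after it, which were covered to 24.0% and 16.5%. The window lies in the megabase chr10:79000001-80000000, where 98 regions covered 28.1%. In the RefSeq gene order, Tcf3 stands between Uqcr11, which encodes a subunit of respiratory complex III, and Onecut3, which encodes a homeobox factor, and the regions were not divided among these genes.

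Tcf4 had the most regions but none of 5000 bases or more, a length that 8.92% of all regions reach. The other 4 windows held 2 or 3 such regions each. These counts are small, and the difference was not tested. Its longest region, chr18:69819917-69824659, had 4743 bases. The next were chr18:69733286-69737084 with 3799 bases and chr18:69657037-69660489 with 3453 bases. The first region was chr18:69503246-69503875, of 630 bases, and the last was chr18:69825499-69826833, of 1335 bases. The median length was 1758 bases and 1 of the 26 regions had the shortest length. Thus no single region dominated, and the longest held 10.1% of the covered bases.

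The Tcf4 regions filled the middle of the window. The first 83.2 kb and the last 93.2 kb were free of regions, and the 324 kb between were covered to 14.5%. The regions were evenly divided, with 13 before and 13 after the middle of the window, and the largest gap between them was 35.8 kb. Joining over gaps of up to 12500 bases gave 11 domains, and the one with the most covered bases held 5 regions over 27.0 kb (chr18:69729254-69756276). Small groups of regions also stood at both ends of the marked part, 3 within 5.29 kb at the start and 4 within 19.5 kb at the end. The 100 kb before and after the window held 4 regions and 1 region, covered to 3.80% and 4.44%.

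Tcf12 had one broad region and many short ones. The broad region, chr9:71734994-71746022, had 11029 bases, held 24.6% of the covered bases and stood alone, with 51926 bases free of regions before it and 52436 bases after it. The other long regions were chr9:71798459-71803466 with 5008 bases and chr9:71933423-71938204 with 4782 bases. The first region was chr9:71620941-71622020, of 1080 bases, and the last was chr9:72017225-72018589, of 1365 bases. The median length was 1284 bases, below the 1497 bases of all regions, and 2 of the 19 had the shortest length.

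The regions of Tcf12 were unevenly placed. The part beyond the middle of the window held 15 and the part before it held 4, and the largest gap, 60.4 kb, lay between the first region and the next. Joining gave 10 domains. Apart from the broad region, which formed the domain with the most covered bases, the largest held 5 regions over 27.2 kb (chr9:71933423-71960621). The 100 kb before and after the window held 1 region each, covered to 1.85% and 0.921%, so the marking ended near the window. In the RefSeq gene order Tcf12 stands between Cgnl1, which encodes a junction protein, and Zfp280d, which encodes a zinc finger protein.

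Id2 had a long region in the middle of the window and a dense run at its end. The long region was chr12:25777090-25786751, of 9662 bases and 32.0% of the covered bases. A region of 988 bases lay 7368 bases before it, and the nearest region after it was 30.1 kb away. The next were chr12:25846092-25853966 with 7875 bases and chr12:25839329-25842787 with 3459 bases. The first region, chr12:25721795-25722295, was 1 of 2 with the shortest length of 501 bases. The last, chr12:25859231-25860008, of 778 bases, ran 8 bases past the window. The median was 1656 bases.

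The dense run at the end belonged to a larger domain. Joining gave 4 domains in the Id2 window, and the largest, chr12:25816885-25908853, held 13 regions over 92.0 kb, of which 7 lay in the window. It covered 44.3 kb, and 1.06% of all domains covered as many bases. The 100 kb after the window held 14 regions covered to 33.2%, above the 18.9% of the window itself, while the 100 kb before it held 3 regions covered to 3.44%. The count for Id2 therefore depends on where the window ends. In the RefSeq gene order Id2 stands between Kidins220 and Rnf144a.

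Id3 was marked throughout its window. Cut into bins of 20 kb, 1 of 5 bins was free of regions at Tcf3, 10 of 25 at Tcf4, 5 of 20 at Tcf12 and 2 of 8 at Id2, while each of the 6 bins at Id3 held some. The longest Id3 region, chr4:135630694-135649182, had 18489 bases, of which 9306 lay before the start of the window. The next were chr4:135729250-135740493 with 11244 bases and chr4:135698388-135706237 with 7850 bases. The first region was the longest one and the last was chr4:135755937-135757180, of 1244 bases. The median length was 1694 bases, and 4 of the 19 regions had the shortest length, beside 14.3% of all regions. Long and very short regions thus stood side by side. The window held 2 of the 3 regions of at least 10 kb among the 84 members, and Tcf12 held the other. Of all regions in the list, 2.15% reach that length.

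Of the 5 loci, Id3 had the lowest median gap. Median gaps were 3.13 kb at Tcf3, 7.82 kb at Tcf4, 13.0 kb at Tcf12, 6.82 kb at Id2 and 2.59 kb at Id3, beside 8.87 kb over all regions of the list. Gaps of at most 12500 bases were 8 of 8 at Tcf3, 15 of 25 at Tcf4, 9 of 18 at Tcf12, 7 of 10 at Id2 and 17 of 18 at Id3, beside 57.7% of all gaps. The largest gap was 12479 bases at Tcf3 and 13.1 kb at Id3. Joining gave 2 domains at Id3. The larger, chr4:135625651-135706237, held 14 regions over 80.6 kb, of which 13 lay in the window. This domain was covered to 64.9%, and 0.712% of all domains covered as many bases. It stayed whole when the joining gap was cut to 5 kb, and at that gap 0.0269% of domains held as many regions. The smaller, chr4:135719290-135763607, held 7 regions over 44.3 kb, of which 6 lay in the window.

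Marking continued outside the Id3 window but was less dense there. The 100 kb before it held 10 regions covered to 27.6%, and the 100 kb after it held 6 covered to 13.4%. In the RefSeq gene order Id3 stands between Rpl11, which encodes a ribosomal protein, and E2f2, which encodes a cell cycle transcription factor, and how far the marking belongs to them was not tested.

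**Figure D4:**
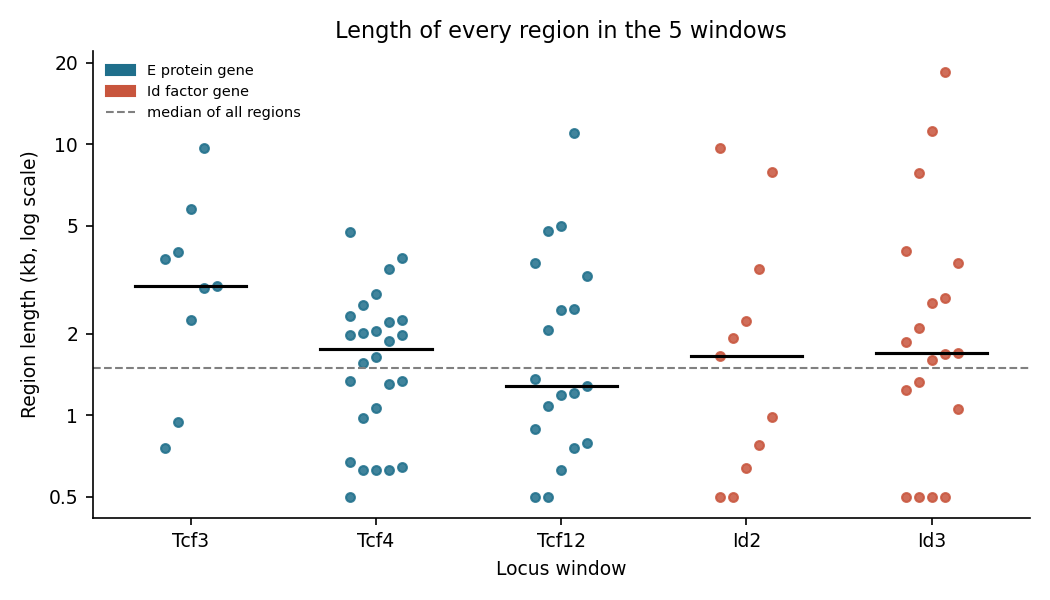
Length of every region in the 5 windows, in kb on a log axis; black bars are medians and the dashed line is the median of all regions, 1497 bases. The Tcf3 median, 2989 bases, lies above the line, and the Id3 window reaches from 501 to 18489 bases.

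Very short gaps between regions occurred at all 5 loci. Gaps under 1 kb numbered 1 of 8 at Tcf3, 5 of 25 at Tcf4, 2 of 18 at Tcf12, 1 of 10 at Id2 and 2 of 18 at Id3, beside 11.9% of all gaps in the list. Over all 84 members, 9 regions (10.7%) reached 5000 bases, beside 8.92% of all regions, and 9 (10.7%) had the shortest length, beside 14.3%. These shares are near the background and are no result about the members.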

How the data were processed

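H3K4me1 and input chromatin of pre-B cells was sequenced as single-end reads of 100 bases after 18 cycles of PCR, per the labels' protocols. Bowtie 0.12.9, HOMER 4.7 and build mm9 were used, per the submitters' processing notes. Per the file headers, findPeaks in histone style called 500-base peaks with at least 26 tags, 4-fold over input, and stitched them into regions. The deposited score is 1 in every row, so regions were described by position and length. Positions of regions count from 1.

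Regions were counted where they overlapped a window by at least 1 base, and covered bases were clipped to the window. Counts per length were compared by exact conditional binomial intervals, and windows by a census of equal tiles on the autosomes. Domains join gaps of up to 12500 bases. Alternatives covered length minimum, overlap rule, window size, tile placement and joining gap. In each window, the 3 longest regions, the first and last region and the largest domain are named. The members, windows and lists were chosen with earlier results of these data known. Planned marker and pathway lists and member proteins need an mm9 annotation and a protein table and were not analysed here. Computations were checked on simulated regions. Python 3.11.15, numpy 2.4.6, pandas 2.3.3, scipy 1.17.1 and matplotlib 3.10.9 were used.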

Additional observations from a re-analysis of the deposited data

How the results depend on the processing

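Windows of equal size (100 kb around the middle) and coverage in them were added after seeing the data. Of the ratios between E protein and Id windows, 5 values turned round: Tcf3 over Id3 was 1.05 among regions of at least 2000 bases, Tcf4 over Id2 was 1.01 among regions of at least 1000 bases, 1.04 in windows shortened at each end and 1.20 in windows of equal size, and Tcf12 over Id2 was 1.11 by coverage in windows of equal size. By count, Tcf12 over Id2 was 1.00 in windows of equal size, so it had no direction there. The cause of these changes was not tested. Tcf4 and Tcf12 stayed below Id3 under each alternative run. A minimum of 2000 bases left 10 regions at Tcf4 with a coverage of 5.63%, 8 at Tcf12, 4 at Id2 and 8 at Id3. A minimum of 1000 bases left 6 at Id2. The shares of all regions that pass these minimums were not computed. Windows of 100 kb held 6 regions at Tcf4, 5 at Tcf12 and 5 at Id2, by construction. The share of tiles as full as the window was 10.3% for Tcf3, 15.6% for Id2 and 0.0496% for Id3 among tiles with a region, and 0.0500% for Id3 in shifted tiles. By coverage it was 1.90% for Tcf3, 17.5% for Tcf4 and 0.485% for Id3. Gaps under 2.5 kb numbered 2 of 8 at Tcf3, 9 of 25 at Tcf4, 5 of 18 at Tcf12, 2 of 10 at Id2 and 9 of 18 at Id3. Among the loci, their share was highest at Id3, followed by Tcf4. These counts are small, and the differences between the loci were not tested. Joining over 5 kb gave 4 domains at Tcf3, 7 at Id2 and 4 at Id3, and joining over 25 kb gave 4 at Tcf4, 6 at Tcf12 and 1 at Id3. Tcf3 over Id2 kept its direction but ranged from 1.31 to 2.80, with 1.87 among regions of at least 1000 bases, 1.80 in windows of equal size and 2.23 by coverage in them. No paired analysis was possible because each group has 1 library. Tags per region were not analysed here, so it is not known which members only just passed the caller's threshold.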

Other observations

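The rows of the deposited list are ordered neither by position nor strictly by length. The order is not explained in the sources used here, but place in the list and length had a Spearman rank correlation of -0.973 across the 48130 regions of this library, which are not replicates. Place is given here as a description, and it is no measurement of signal. At Tcf3, the region chr10:79862576-79865533, of 2958 bases, stood at place 4128, ahead of 99.8% of the 3340 regions within 10% of its length. The 3768-base region that follows the longest region of Tcf3 stood at place 3586, ahead of 98.6% of regions of like length, and the 5753-base region after it stood ahead of 96.0%. The other Tcf3 regions ranged from 0.582% to 81.4%, with 21.7% for the region of 4014 bases and 74.2% for the longest, so the locus held places at both ends. Over all their regions, the shares ran from 1.86% to 96.4% at Tcf4 and from 7.42% to 88.9% at Tcf12. They ran from 4.82% to 95.9% at Id2 and from 26.3% to 93.3% at Id3, so a wide spread was not particular to Tcf3. At Id2, the region of 7875 bases stood at place 974, ahead of 95.9% of its like, while the longest region, of 9662 bases, stood at place 1613, ahead of 26.1%. The longest region of Id3 stood at place 202 and that of Tcf12 at place 1109, ahead of 42.2% and 33.3%. The longest region of Tcf4 stood at place 4347, ahead of 63.9%. These regions, other than the longest of each window, were chosen after their values were seen.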
